A study of Mus musculus with 12 samples.

Results

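The genes described here are the 3 D-type cyclins Ccnd1, Ccnd2 and Ccnd3, their kinase partner Cdk6, and 6 inhibitors of cyclin-dependent kinases (CDKs), namely Cdkn2a, Cdkn2b, Cdkn2c, Cdkn2d, Cdkn1a and Cdkn1b. They were chosen by name, as the rows with these 10 symbols, and all 10 were listed among the 38720 genes of each of 2 deposited RNA-seq tables. RNA came from retinas of P0 (newborn) mice of strain C57/BL6. In mKO animals, Math5-Cre recombined Ezh2 alleles whose loxP sites flank the exons of the SET domain, the catalytic part of this histone methyltransferase, and WT animals served as controls. Math5 is switched on in the lineage of retinal ganglion cells (RGCs), and this Cre is active in only a part of them, so that mKO RGCs were a mixture of cells with and without the deletion. By the paper's account, few of the other retinal cells arise from progenitors with Math5. Dissociated retinas were separated with magnetic beads against CD90 (Thy-1), a surface protein of RGCs, into captured cells (RGCs) and the remaining cells (non-RGCs). Each of the 4 groups (mKO RGC, WT RGC, mKO non-RGC and WT non-RGC) had 3 libraries, 12 in all, which are lettered A to C from the deepest to the shallowest within a group. The letters mark no pairing between groups.

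A cell commits to another division when D-type cyclins, bound to Cdk4 or Cdk6, phosphorylate the retinoblastoma protein and so release E2F transcription factors. The INK4 inhibitors (Cdkn2a to Cdkn2d) bind Cdk4 and Cdk6 and keep them from the cyclins, whereas the CIP/KIP inhibitors (Cdkn1a, which encodes p21, and Cdkn1b, which encodes p27) bind complete cyclin-CDK complexes. Cyclin D1 is the main D cyclin of retinal progenitors, and p27 and p19Ink4d hold retinal neurons out of the cycle after their last division. The Cdkn2a-Cdkn2b locus is a textbook target of Polycomb repression, in which Ezh2 places methyl groups on lysine 27 of histone H3. At P0 the RGCs have left the cycle, while progenitors in the remaining retina still divide.

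The Cdkn2a gene has 2 promoters, which give different proteins from a shared second exon. In the annotation of GRCm38, the build that mm10 names, Cdkn2a lies on the minus strand of chromosome 4 from 89274471 to 89294653. The transcript Cdkn2a-202 starts at the outer first exon (89294334 to 89294653) and encodes p19Arf, an activator of p53. The transcript Cdkn2a-201 starts at an inner first exon (89281986 to 89282192) and encodes p16Ink4a. Both run through the exon from 89276645 to 89276985, so the gene's read count does not tell the 2 apart. Cdkn2b (89306299 to 89311039, same strand) encodes p15Ink4b and lies next to it. The sequences before these 3 starts are shown because this locus is the textbook Polycomb target among the 10 genes. Each line gives the bases from 250 to 51 before a RefSeq start (GRCm38.p6, minus strand), with CG dinucleotides in capitals.
Cdkn2a, outer start, chr4:89294670-89294869: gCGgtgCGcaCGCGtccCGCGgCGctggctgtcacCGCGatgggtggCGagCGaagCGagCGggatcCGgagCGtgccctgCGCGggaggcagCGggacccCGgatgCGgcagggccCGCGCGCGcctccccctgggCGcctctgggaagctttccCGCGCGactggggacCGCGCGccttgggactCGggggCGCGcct
Cdkn2a, inner start, chr4:89282243-89282442: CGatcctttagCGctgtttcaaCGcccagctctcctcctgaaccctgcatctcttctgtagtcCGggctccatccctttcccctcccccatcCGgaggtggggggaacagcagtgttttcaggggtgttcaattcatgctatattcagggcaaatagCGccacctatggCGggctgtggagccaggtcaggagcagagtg
Cdkn2b, chr4:89311083-89311282: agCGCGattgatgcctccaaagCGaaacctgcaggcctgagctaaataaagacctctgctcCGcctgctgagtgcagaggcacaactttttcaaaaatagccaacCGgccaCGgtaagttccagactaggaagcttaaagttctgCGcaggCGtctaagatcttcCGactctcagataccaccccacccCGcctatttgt
The outer Cdkn2a window held 34 CG dinucleotides, more than 99.2% of 32851 RefSeq promoter windows of the same 200 bases. The inner window held 7 and that of Cdkn2b 10, against a median of 4 over all windows. Windows of 8 of the 10 genes were used, those of Ccnd1 and Ccnd2 not. The other windows, of 6 genes, ran from 25 in Cdkn1b and 21 at a Cdkn2c start to 5 at the other Cdkn2c start, all above this median, except 1 Cdkn1a start with 2.

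Reads on genes numbered 10600964 to 13014004 per library in RGCs and 7139633 to 12828281 in non-RGCs, the shallowest being the mKO non-RGC library C. The targeted gene, Ezh2, had 1354, 1476 and 1443 normalized reads (reads divided by the authors' size factor of the library) in the mKO RGC libraries A to C and 1189.9, 1206 and 1678 in WT. The 2 ranges overlapped, and the log2 difference was 0.09 ± 0.13 (SE). The count covers the whole gene and does not test the loss of the flanked exons. In non-RGCs it was 0.13 ± 0.15 (SE). The 10 markers of RGCs summed to 26295 to 30034 normalized reads in WT RGCs, 20108 to 20775 in mKO RGCs, 3787 to 3988 in WT non-RGCs and 5057 to 6455 in mKO non-RGCs, on a scale set over all 12 libraries. Thy1, the capture target, gave 2075 to 2486, 1377 to 1406, 1.97 to 9.70 and 70.0 to 95.3 in the same order. The 10 markers of cycling cells (Mki67, Top2a and others) summed to 9937, 11413 and 17375 in the WT RGC libraries A to C, so that library C stood apart from the other WT RGC libraries. In mKO RGCs they summed to 11157 to 12556, in WT non-RGCs to 22288 to 28611 and in mKO non-RGCs to 19186 to 21761. The 8 progenitor markers showed the same library apart, with 7055, 7036 and 11063 in WT RGCs against 5448 to 5855 in mKO RGCs.

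Levels can be set side by side between genes only per length, as RPKM (reads per kilobase of exon, scaled to the library's total of reads on genes). The counts are labelled as made after removal of duplicate reads, and its effect on the levels of abundant genes was not tested. Ccnd1 stood first in every group, with 68.9 ± 17.7 RPKM (SD, n = 3) in WT RGCs, 46.3 ± 3.27 in mKO RGCs, 90.8 ± 7.20 in WT non-RGCs and 75.5 ± 16.6 in mKO non-RGCs. In WT RGCs it was followed by Cdkn2d (36.0 ± 0.121), Cdkn1b (34.8 ± 5.46) and Cdkn1a (32.8 ± 2.03), whose libraries overlapped along that order. Cdkn2c (17.4 ± 6.98) and Ccnd3 (4.14 ± 0.709) came next and did not overlap each other. Ccnd2, Cdkn2a, Cdk6 and Cdkn2b had mean RPKM between 0.42 and 1.5 in WT RGCs, and each overlapped its neighbour in the order. In WT non-RGCs the inhibitors stood in the order Cdkn1b (51.7 ± 4.58), Cdkn2c (40.1 ± 4.67), Cdkn2d (29.9 ± 2.58) and Cdkn1a (16.9 ± 4.55), with no overlap between neighbours. Cdkn2c therefore stood ahead of Cdkn1a in WT non-RGCs and behind it in WT RGCs. In mKO RGCs Cdkn2a and Cdkn2b were the lowest, with 0.405 ± 0.114 and 0.402 ± 0.160 RPKM.

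**Figure D1:**
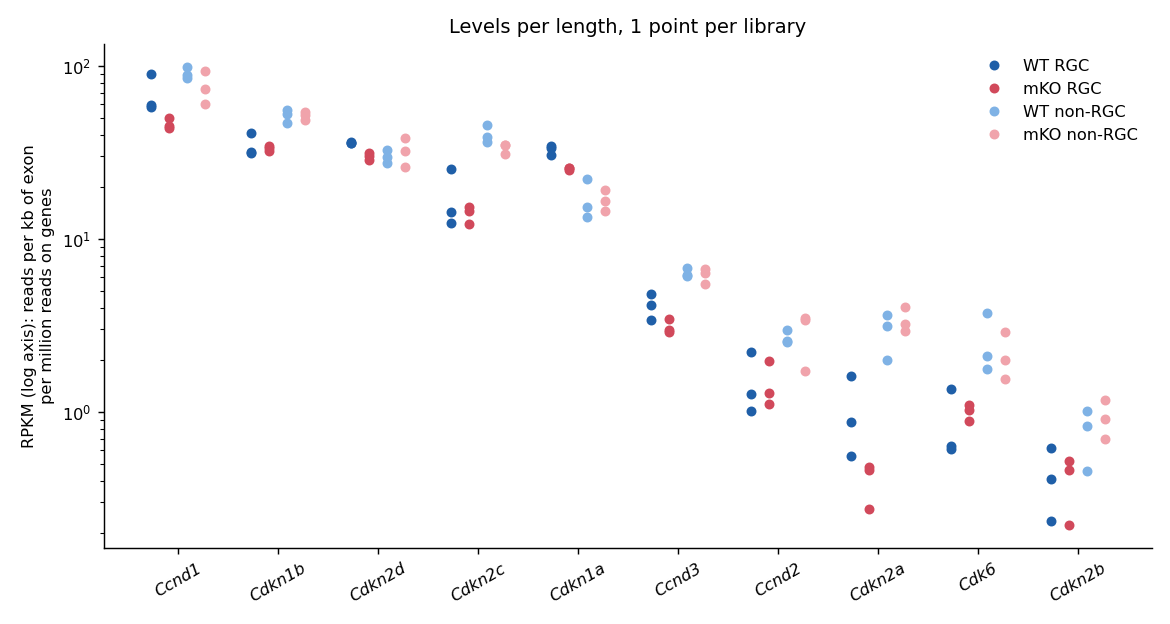
Levels of the 10 genes in RPKM, on a log axis, with 1 point per library (3 per group) and genes ordered by their mean over the 12 libraries. Ccnd1 is the highest in every group, and Cdkn2b, Cdkn2a, Cdk6 and Ccnd2 lie lowest.

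The first comparison asked how these genes differed between mKO and WT RGCs. Of the 10 genes, 9 had a mean of at least 10 normalized reads in either genotype and were tested with limma on log2(value + 1), and 4 of the 9 fell in mKO RGCs at an adjusted p under 0.05. These were Ccnd1, Ccnd3, Cdkn1a and Cdkn2d, and none of the 9 rose. Over all 16085 genes tested, 37.5% passed and 21.2% passed with a lower level in mKO. The median log2 difference was -0.39 over the 9 members and -0.0024 over all genes. In 6 of the 9 the highest mKO library was lower than the lowest WT library, which held for 28.2% of all genes tested. Cdkn2a, among these 6, reached the mean of 10 in WT alone. The RNA came from mixed cells, so fewer cells of a type and less RNA per cell cannot be told apart. The p-values measure the spread between these libraries, and an exact permutation test of 3 against 3 cannot go below 0.1.

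Among the INK4 inhibitors, Cdkn2a had few reads in RGCs, with 7, 4 and 7 reads in the mKO libraries A to C and 8, 12 and 20 in WT. After normalization these were 6.11, 3.69 and 6.59 in mKO and 8.11, 13 and 23.3 in WT. Every mKO library was below every WT library. The log2 difference was -1.21 ± 0.44 (SE), with a 95% interval from -2.25 to -0.17, and it missed the threshold (adjusted p = 0.0693, limma). Without WT library A it passed, at -1.55 (adjusted p = 0.0423). Cdkn2a entered these tests only through WT, where it was higher, since its mKO values were all under the filter's mean of 10.

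Cdkn2b, its neighbour, had 4, 8 and 9 reads in the mKO RGC libraries and 4, 10 and 6 in WT. The groups overlapped, and its means were under the filter. With no filter its log2 difference was -0.14 ± 0.49 (SE), with an interval from -1.27 to 0.98, which leaves room for a change of either sign at this depth.

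Cdkn2c, which encodes p18Ink4c, had 445, 472 and 384 normalized reads in mKO RGCs and 418, 486 and 843 in WT. The groups overlapped, and WT library C was far above the other WT libraries. The log2 difference was -0.36 ± 0.25 (SE, adjusted p = 0.288).

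Cdkn2d, which encodes p19Ink4d, had 537, 564 and 521 normalized reads in mKO RGCs and 706, 716 and 704 in WT. The 2 groups were far apart relative to their own spread, and Cdkn2d fell by 0.39 on the log2 scale (SE 0.0622, adjusted p = 0.00345, limma), to 0.763 of the WT level. It passed without each library in turn.

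Of the CIP/KIP inhibitors, Cdkn1a had 1039, 1042 and 1030.4 normalized reads in the mKO RGC libraries and 1525, 1509 and 1341 in WT. All mKO libraries were below all WT libraries, and Cdkn1a fell by 0.49 on the log2 scale (SE 0.0649, adjusted p = 0.00177), to 0.713 of the WT level. It also passed without each library in turn. Cdkn1b, with the most reads of the inhibitors, had 1735, 1785 and 1711 in mKO and 1820.4, 1805 and 2314 in WT. Its groups did not overlap but lay close together, with a log2 difference of -0.17 ± 0.10 (SE, adjusted p = 0.211).

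Of the D cyclins, Ccnd1 had 2403, 2701 and 2415 normalized reads in the mKO RGC libraries and 3413, 3538 and 5200.3 in WT. The groups did not overlap, although WT library C was much above the other WT libraries. Ccnd1 fell by 0.67 on the log2 scale (SE 0.16, adjusted p = 0.0157), to 0.630 of the WT level. Without mKO library A or C it missed the threshold, at an adjusted p of 0.0583 and 0.0599.

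Ccnd3 had 341, 299 and 297 normalized reads in mKO RGCs and 374, 464 and 524 in WT, again without overlap. It fell by 0.53 on the log2 scale (SE 0.14, adjusted p = 0.0218). The call was lost with CPM scaling in place of size factors (adjusted p = 0.0598) and without mKO library B, mKO library C or WT library B, with adjusted p from 0.0585 to 0.0809. Ccnd2 had 209, 138 and 122 in mKO and 119, 264 and 148 in WT. In each genotype 1 library stood above the others, and the interval of its log2 difference, from -0.90 to 0.64, spanned 0.

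Cdk6 had 141, 165 and 179 normalized reads in mKO RGCs and 106, 112 and 236 in WT. WT libraries A and B lay below every mKO library, and WT library C lay above all of them. The log2 difference was 0.19 ± 0.31 (SE, adjusted p = 0.655) over the 6 libraries. Without WT library C, Cdk6 passed as higher in mKO, at 0.56 (adjusted p = 0.0126). Without that library 5 of the 9 members passed, namely Cdk6 and the 4 that fell, while the share of all genes tested that passed was 50.8%. Ccnd1 then differed by -0.47 and Ccnd3 by -0.42 on the log2 scale.

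**Figure D2:**
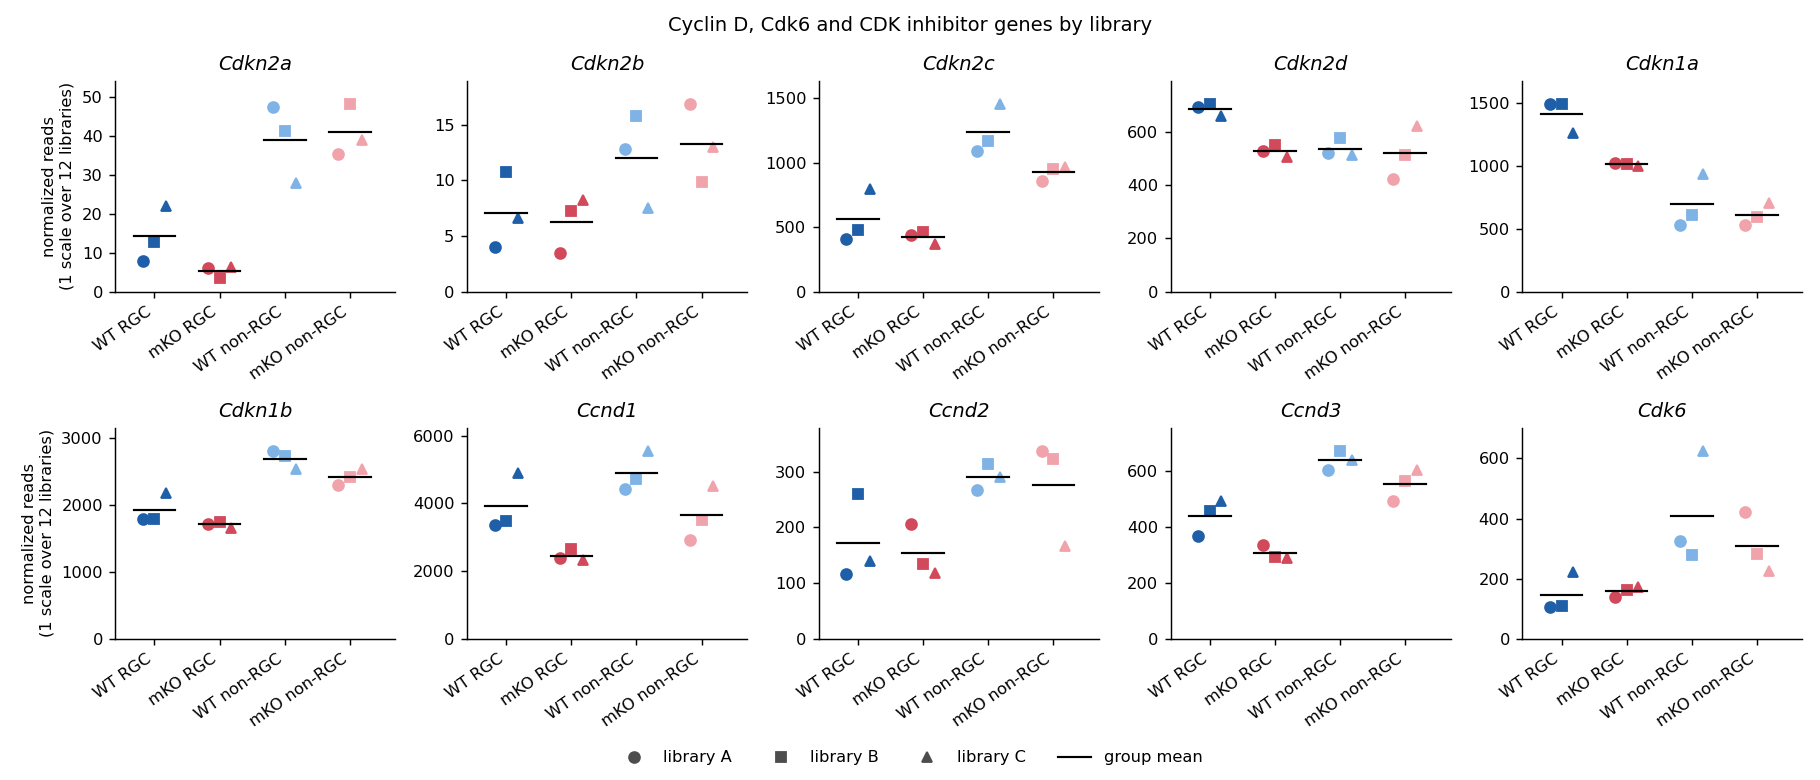
Normalized reads of each gene in each library, on 1 scale over the 12 libraries, with axes from 0. Symbols mark libraries A to C within a group, and a bar marks the mean of 3. In RGCs, the mKO points of Cdkn2a, Cdkn2d, Cdkn1a, Cdkn1b, Ccnd1 and Ccnd3 lie below all WT points. WT RGC library C is the highest WT RGC point for Cdkn2a, Cdkn2c, Cdkn1b, Ccnd1, Ccnd3 and Cdk6.

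Removing trends with base composition changed these calls. The exons of the 4 members that fell were 51.7% (Ccnd1), 52.4% (Cdkn1a), 54.0% (Ccnd3) and 56.0% (Cdkn2d) G or C, those of Cdkn2a and Cdkn2c 59.5% and 57.4%, and those of Cdkn1b, Cdk6 and Ccnd2 43.1%, 45.8% and 48.7%. When each library's trend with GC content over all genes was removed, 15.5% of genes passed and 2 of the 9 members did. Cdkn1a remained lower in mKO (-0.29 ± 0.072, adjusted p = 0.0402). Cdkn1b, of low GC content, passed as lower (-0.41 ± 0.10, adjusted p = 0.0338). Cdkn2d moved to -0.03 ± 0.060 (adjusted p = 0.741), with an interval from -0.17 to 0.11. Ccnd1 moved to -0.50 ± 0.15 (adjusted p = 0.0677), Ccnd3 to -0.25 ± 0.13 (adjusted p = 0.237) and Cdkn2a to -0.70 ± 0.44 (adjusted p = 0.320). When the trend with reads per base of exon was removed as well, 8.24% of genes and none of the 9 members passed in limma, and 2 members (Cdkn1a and Ccnd3, both lower) had an unadjusted p under 0.05, as did 26.1% of all genes. The differences were then -0.20 ± 0.071 for Cdkn1a, -0.42 ± 0.13 for Ccnd3, -0.23 ± 0.15 for Ccnd1, -0.98 ± 0.46 for Cdkn2a and 0.05 ± 0.057 for Cdkn2d (log2 ± SE).

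**Figure D3:**
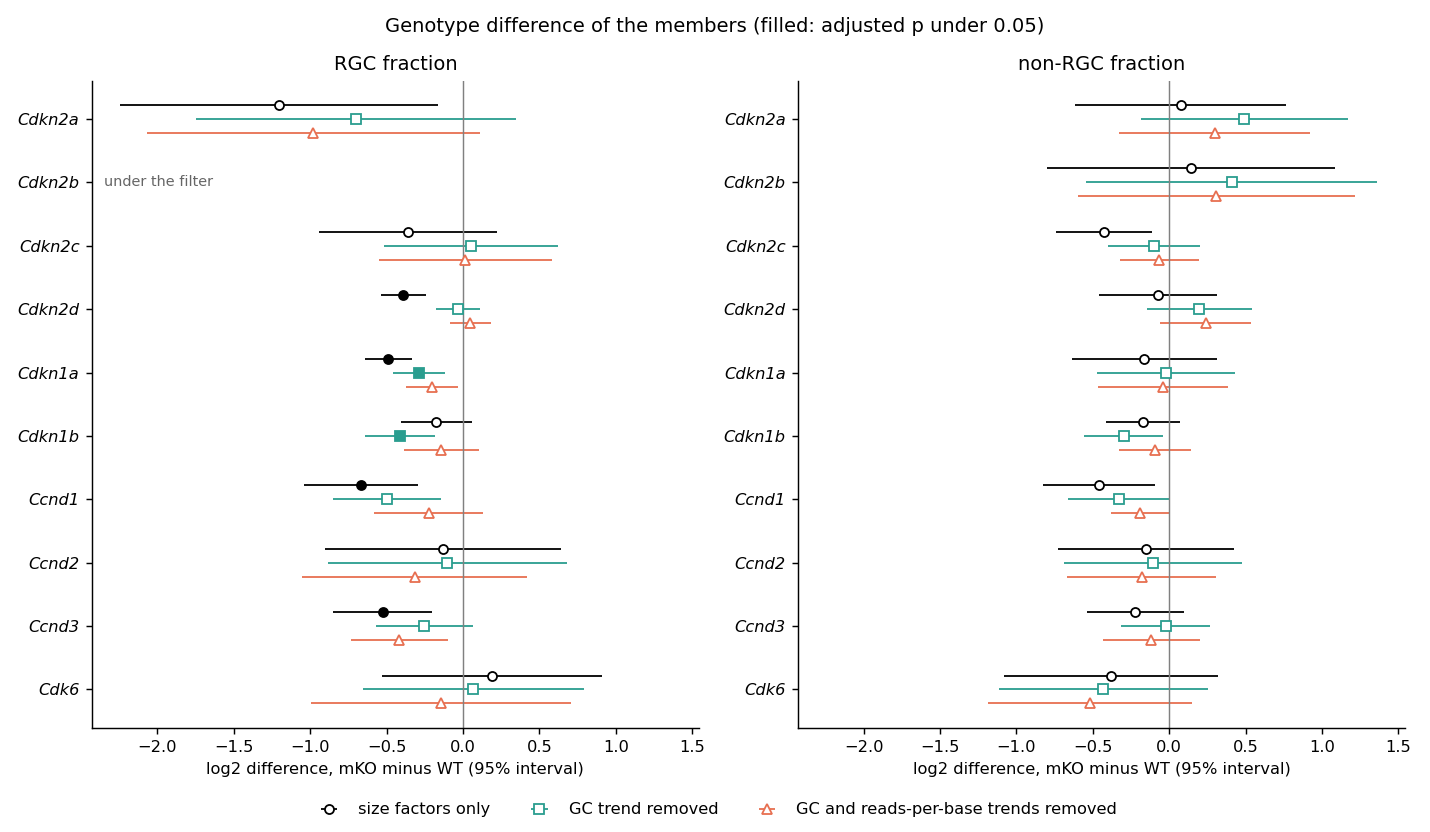
Log2 difference between mKO and WT with its 95% interval in RGCs and non-RGCs, under the authors' size factors, with each library's GC trend removed, and with its trends over both GC content and reads per exon base removed. Filled symbols mark an adjusted p under 0.05. In RGCs, 4 members are filled with size factors only, 2 with the GC trend removed and none with both removed, and in non-RGCs none is filled.

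Markers of other cells differed between the same libraries. Of all genes tested in this comparison, 37.5% passed, and 21.2% passed as lower in mKO. Of the RGC markers, 9 of 10 fell in mKO RGCs, and the summed level was lower in every mKO than in every WT library. Of the progenitor markers 4 of 8 fell and none rose, and of the cycling markers 1 of 10 fell and none rose. Of the photoreceptor markers 3 of 6 fell, with sums of 5809 to 8126 in WT and 4866 to 5302 in mKO RGCs. Of the amacrine markers 4 of 6 fell, with sums of 5367 to 6202 and 4721 to 4949. Pigment cell markers summed to 229.6 to 307 in WT and 445 to 671 in mKO RGCs, with 3 of 5 higher and Rpe65 at 0 to 2 reads, and blood markers to 101 to 111 and 233 to 294, with 4 of 4 higher. None of the 5 microglial markers passed (2049.6 to 2903 against 1131 to 2398), and 1 of 5 astrocyte and 1 of 6 vascular markers fell. The kidney genes Umod and Kap both fell. No cycling, progenitor, photoreceptor or amacrine marker was at 0 in any RGC library. These marker calls also changed when trends were removed. With the GC trend removed, where 15.5% of all genes passed, 7 RGC, 1 progenitor, 2 photoreceptor and 3 amacrine markers passed as lower and 1 pigment marker as higher. With both trends removed, where 8.24% of all genes passed, the numbers were 2, 1, 1, 2 and 1. The median of the 10 RGC markers moved from -0.47 with size factors to -0.40 and then -0.046 (log2), while the 4 blood markers passed as higher throughout. Their part in the differences of the cyclin and inhibitor genes was not tested.

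In non-RGCs the same comparison found no member past the threshold in limma, with all 10 tested, while 10.6% of 15326 genes passed. By the paper's account few of these cells would carry the deletion. Their values therefore need not show how the genes respond to loss of Ezh2. The robust form of limma also called none. At an unadjusted p under 0.05 there were 2 of the 10 members in both forms, Cdkn2c and Ccnd1, against 29.9% of all genes, so the members' share was below the background. The median log2 difference was -0.17 over the members and -0.026 over all genes.

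Cdkn2a had 33.9, 47.0 and 38.1 normalized reads in the mKO non-RGC libraries A to C and 46.9, 40.6 and 27.1 in WT, so that the groups overlapped throughout. The 95% interval of its log2 difference ran from -0.62 to 0.77. Cdkn2b had 16.2, 9.59 and 12.7 in mKO and 12.6, 15.5 and 7.30 in WT, also overlapping, with a wider interval from -0.80 to 1.08.

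Cdkn2c had 817, 925 and 945 normalized reads in mKO non-RGCs and 1072, 1147 and 1409.7 in WT. The groups did not overlap, and the log2 difference was -0.43 ± 0.14 (SE, adjusted p = 0.0801). With the GC trend removed it was -0.10 ± 0.13. Cdkn2d had 405, 501 and 610.0 in mKO and 513, 566 and 498 in WT, with mKO libraries on both sides of the WT libraries.

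Cdkn1a had 509, 579 and 689 normalized reads in mKO non-RGCs and 522, 602 and 907 in WT, where library C was far above the other WT libraries. Cdkn1b had 2198, 2340.2 and 2473 and 2768, 2669.8 and 2453, with overlapping ends. Neither inhibitor passed, with log2 differences of -0.16 ± 0.21 and -0.17 ± 0.11 (SE).

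Ccnd1 had 2796, 3409.5 and 4423 normalized reads in mKO non-RGCs and 4371, 4639 and 5379 in WT. The mKO library C, the shallowest of the 12, overlapped the WT range and the other 2 mKO libraries did not. The log2 difference was -0.46 ± 0.16 (SE, adjusted p = 0.0979), and without mKO library C it was -0.63 and passed (adjusted p = 0.0312). Ccnd3 lay lower in all mKO libraries (474, 551 and 592) than in all WT libraries (595, 662 and 621), with a log2 difference of -0.22 ± 0.14 that did not pass (adjusted p = 0.324).

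Ccnd2 had 324, 314 and 164 normalized reads in mKO and 263, 309 and 282 in WT non-RGCs, with mKO library C low. Cdk6 had 403, 274 and 219 and 321, 274 and 606, with WT library C high. Both sets overlapped, and the intervals ran from -0.73 to 0.42 for Ccnd2 and from -1.08 to 0.32 for Cdk6. RGC markers stood beside these values with 7 of 10 higher in mKO non-RGCs, where 10.6% of all genes passed. Progenitor and cycling markers had 1 of 8 and 1 of 10 lower, and blood and pigment markers 4 of 4 and 3 of 5 higher. The progenitor markers summed to 13401 to 17036 in WT and 9512 to 13103 in mKO non-RGCs, without overlap. The cycling markers summed to 22288 to 28611 and 19186 to 21761, again without overlap. Photoreceptor markers had 4 of 6 lower, with sums of 11592 to 12855 in WT and 8507 to 9546 in mKO non-RGCs, and amacrine markers 2 of 6 lower, with sums of 11320.2 to 12512 and 8425 to 9546, in both lists without overlap. With the GC trend removed 1 photoreceptor and none of the amacrine, progenitor or cycling markers passed as lower in limma, and 5 of 10 RGC markers passed as higher. The part of these markers in the members' values was not tested.

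Whether the genotype difference itself differed between RGCs and non-RGCs was tested as an interaction over the 12 libraries. None of the 10 members passed in limma or in its robust form, against 0.0969% of 16517 genes. At an unadjusted p under 0.05 there was 1 of 10 members in both, Cdkn2a, against 9.66% of all genes, so the members' share was near the background. The genotype difference of Cdkn2a in RGCs minus that in non-RGCs was -1.28 ± 0.54 (log2, SE, adjusted p = 0.497 by limma). Its values in mKO RGCs were all under the filter's mean of 10. For Ccnd1, which passed in RGCs alone, the difference of the 2 effects was -0.21 ± 0.25, with an interval from -0.74 to 0.32. The corresponding values were -0.33 ± 0.24 for Cdkn1a, -0.32 ± 0.19 for Cdkn2d and -0.31 ± 0.19 for Ccnd3. Their intervals also spanned 0, so the calls in RGCs were not shown to be particular to that fraction.

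The captured and remaining cells of the same genotype were compared after the 12 libraries had been put on 1 scale, since the tables had been normalized separately. They are the same libraries as in the genotype comparisons. In WT retina 6 of the 10 members were lower in RGCs, 2 were higher and 2 did not pass. Over all 15742 genes tested, 50.8% passed, 23.7% as lower and 27.2% as higher in RGCs. The median log2 difference of the members was -0.64, and that of all genes -0.026. The cycling markers were lower in RGCs in 10 of 10 and the progenitor markers in 8 of 8. The microglial markers were higher in the captured cells in 5 of 5, in WT and also in mKO retina. In WT they summed to 2049.6 to 2903 in RGCs and 20.5 to 224 in non-RGCs. The captured cells were thus a mixture, and the part of these cell types in the members' differences was not tested.

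Cdkn1a, the p21 gene, was higher in WT RGCs, with 1496, 1489 and 1260.0 normalized reads in RGC libraries A to C against 529, 613 and 937 in non-RGCs. No libraries overlapped, and the level in RGCs was 2.10-fold that in non-RGCs (log2 1.07 ± 0.18, adjusted p = 0.000262). In mKO retina it was 1025, 1018 and 998 against 531, 596 and 704, again without overlap and with RGCs higher (log2 0.74 ± 0.18, adjusted p = 0.00322).

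Cdkn2d was the other member that was higher in WT RGCs, with 693, 707 and 661 against 520.1, 577 and 515 in non-RGCs (log2 0.36 ± 0.13, adjusted p = 0.0342). In mKO retina its libraries overlapped, with 529, 552 and 505 in RGCs and 423, 515 and 624 in non-RGCs (log2 0.04 ± 0.13, adjusted p = 0.813). The WT call was lost with CPM scaling (adjusted p = 0.0990), with no filter (adjusted p = 0.0528), with the GC trend removed (adjusted p = 0.0524) and without each of WT RGC libraries A and B and WT non-RGC libraries A and C (adjusted p from 0.0728 to 0.0981).

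Cdkn2a was lower in RGCs in both genotypes. In WT it had 7.95, 12.9 and 21.9 normalized reads in RGCs and 47.5, 41.4 and 28.0 in non-RGCs (log2 -1.46 ± 0.38, adjusted p = 0.00574). In mKO it had 6.03, 3.6 and 6.38 and 35.4, 48.3 and 39.0 (log2 -2.74 ± 0.37, adjusted p = 5.92e-05), with neither genotype overlapping. In mKO it entered the test through non-RGCs alone, its RGC values all being under the filter's mean of 10. Cdkn2b pointed the same way but did not pass in WT (-0.72 ± 0.45, adjusted p = 0.195) or mKO (-1.01 ± 0.44, adjusted p = 0.0675). It passed in both with the GC and reads-per-base trends removed (-1.23, adjusted p = 0.0296 in WT and -1.52, adjusted p = 0.00893 in mKO). Cdkn2b entered the tests of both genotypes through non-RGCs alone, where it was higher. The trends were fitted to genes with a mean of at least 50, well above its reads.

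Cdkn2c was also lower in RGCs, with 409.5, 480.1 and 792 normalized reads against 1086, 1168 and 1456 in WT non-RGCs. No libraries overlapped, and the log2 difference was -1.19 ± 0.20 in WT (adjusted p = 0.000315) and -1.12 ± 0.20 in mKO (adjusted p = 0.000454). Cdkn1b, with 1785, 1782 and 2175 against 2804, 2719.6 and 2535 in WT, was lower in RGCs with close log2 differences in WT (-0.49 ± 0.091, adjusted p = 0.000602) and mKO (-0.50 ± 0.091, adjusted p = 0.000555). The inhibitor genes thus did not share a direction between these mixed fractions, that of p21 being higher in the captured cells and those of p18Ink4c and p27 lower.

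Of the cyclins, Ccnd1 had 3347, 3492 and 4886 normalized reads in WT RGCs and 4428, 4726 and 5558 in WT non-RGCs. WT RGC library C lay within the non-RGC range, and the log2 difference was -0.34 ± 0.17 (adjusted p = 0.102). Without that library it was -0.51 and passed (adjusted p = 0.0157), and it also passed with both trends removed (-0.40, adjusted p = 0.00885). In mKO it was -0.55 ± 0.17 (adjusted p = 0.0126), which was lost without mKO non-RGC library C (adjusted p = 0.0637).

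Ccnd3 was lower in RGCs in WT (-0.55 ± 0.13, adjusted p = 0.00354) and in mKO (-0.86 ± 0.13, adjusted p = 0.000148), without overlap in either. Ccnd2 was lower in RGCs, with log2 differences of -0.84 ± 0.32 in WT (adjusted p = 0.0441) and -0.82 ± 0.32 in mKO (adjusted p = 0.0458). Both calls were close to the threshold, and each was lost with no filter (adjusted p = 0.0602 and 0.0599), with the GC trend removed (adjusted p = 0.0535 and 0.0509) and in several fits with a library left out, with adjusted p up to 0.180 in WT and 0.156 in mKO.

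Cdk6 had 104, 110.4 and 222 normalized reads in WT RGCs and 325, 279 and 626 in WT non-RGCs (log2 -1.49 ± 0.34, adjusted p = 0.00260). In mKO the difference was -0.92 ± 0.34 (adjusted p = 0.0342) and was lost without each of mKO RGC libraries A, B and C and mKO non-RGC libraries A and B, with adjusted p up to 0.130. In mKO retina 8 members passed, 7 lower and 1 higher in RGCs, where 55.0% of 16330 genes passed, 25.8% as lower and 29.2% as higher.

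**Figure D4:**
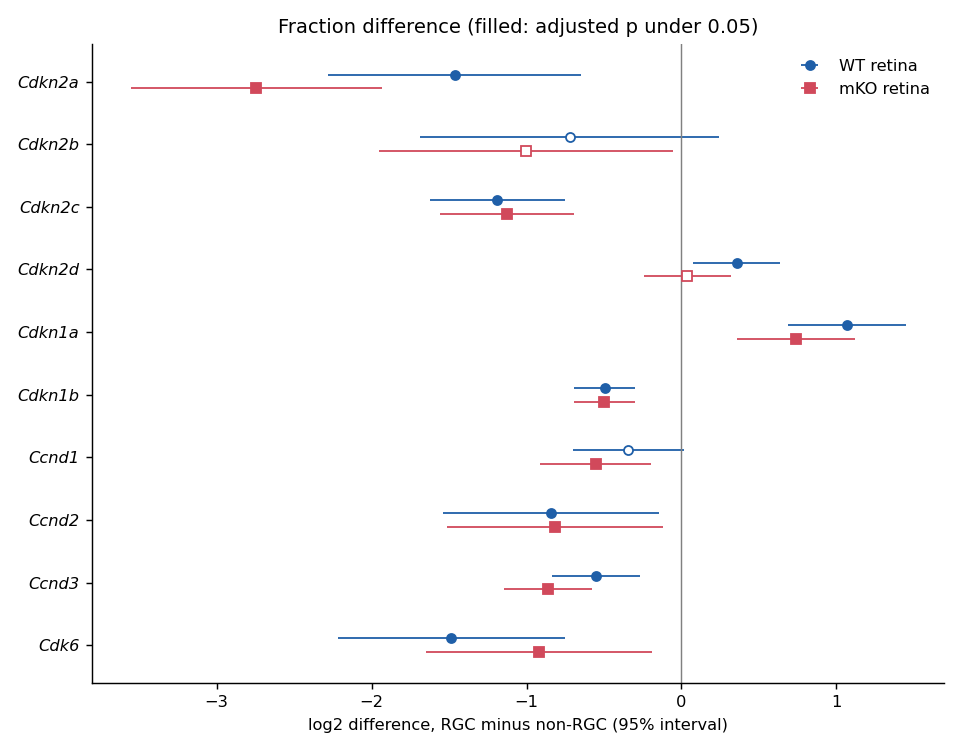
Log2 difference between RGCs and non-RGCs of the same genotype with its 95% interval, from limma over the 12 libraries on 1 scale. Filled symbols mark an adjusted p under 0.05. Points of Cdkn1a and Cdkn2d lie right of 0 in both genotypes, that of Cdkn2d in mKO close to 0 and unfilled. Points of the other genes lie left of 0 in both, with Cdkn2b unfilled in both genotypes and Ccnd1 unfilled in WT.

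Members were also set beside the cycling markers in each library. Cdkn2c was ordered much as the summed cycling markers were, from 372 to 461 normalized reads in mKO RGCs, where the markers summed to 11157 to 12556, to 1086 to 1456 in WT non-RGCs, where they summed to 22288 to 28611. WT RGC libraries A and B had cycling marker sums close to those of mKO RGCs, and their Cdkn2c, 409.5, 480.1 and 792 in libraries A to C, was close to the mKO RGC values except in library C. Ccnd1, Ccnd3, Cdkn1a, Cdkn1b, Cdkn2a and Cdkn2d were higher in WT RGC libraries A and B than in the mKO RGC libraries, and Cdk6 was lower. Of these, Cdkn1b lay close to the mKO values (1785 and 1782 against 1657 to 1745), and Cdkn2a had few reads. WT RGC libraries A and B and the mKO RGC libraries were similar in cycling markers but not in progenitor markers, which summed to 7055 and 7036 against 5448 to 5855. The part of the cell mixture in these values was not tested. This is a description over 12 libraries that fall into separate groups, and no correlation was computed.

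**Figure D5:**
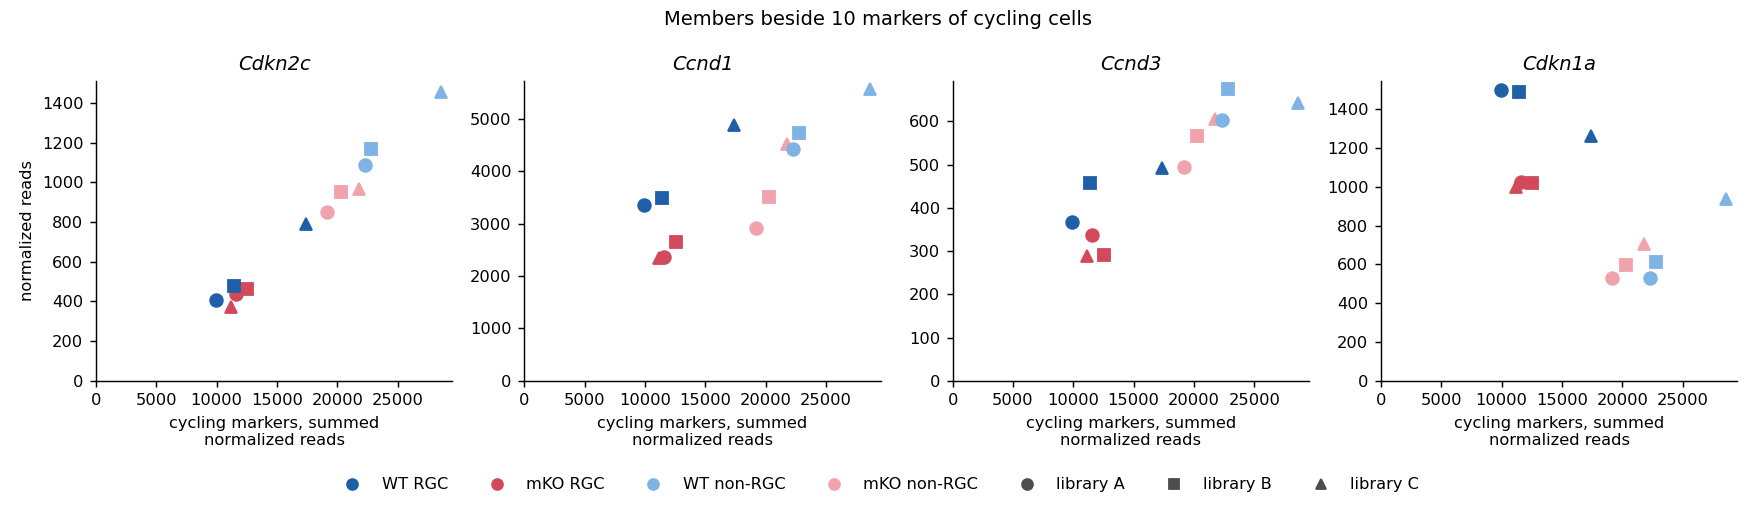
Normalized reads of Cdkn2c, Ccnd1, Ccnd3 and Cdkn1a in each of 12 libraries against the summed normalized reads of 10 markers of cycling cells, with colours for groups and symbols for libraries. WT RGC library C (dark blue triangle) lies between the other RGC libraries and the non-RGC libraries on the horizontal axis.

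The genes closest in pattern were found as those with the smallest root mean square difference of log2 levels, each gene centred on its own mean over the 12 libraries. This was done for the 8 members with at least 50 normalized reads in every library. Cdkn2c was closest to Plk1 (0.0745) and Aurkb (0.0811), both mitotic kinases, of which Aurkb is in the cycling list. Ccnd1 was closest to Pnrc1 (0.0597) and Phc2 (0.0668), the latter a Polycomb group gene. Cdkn2d was closest to Nosip (0.0454) and Atxn10 (0.0525), and Cdkn1b to Zfp146 (0.0563) and Snx1 (0.0639). Cdkn1a was closest to Mid1ip1 (0.103) and Btbd6 (0.109), and Ccnd3 to Plp2 (0.0905) and Bckdk (0.0956). The least close were the nearest genes of Cdk6, Kcnj10 (0.182) and Ildr2 (0.186), and of Ccnd2, Antxr2 (0.220) and Creb3l2 (0.227).

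The other genes of the G1/S step were followed through a list of 27 genes, all of which were tested. In RGCs 2 rose and 5 fell in mKO, against the 37.5% of all genes that passed, and the list's median log2 difference was -0.039. Ccne2, a cyclin E that acts after the D cyclins, rose from 152, 138 and 243 normalized reads in WT to 296, 342 and 312 in mKO (0.87 ± 0.21, adjusted p = 0.0173). Rb1, which encodes the retinoblastoma protein, rose from 980.1, 968 and 939 to 1399.5, 1397 and 1444 (0.55 ± 0.051, adjusted p = 0.000661). Mycn, a transcription factor of dividing progenitors, fell from 2030.2, 1929 and 2375 to 1327, 1386 and 1299 (-0.65 ± 0.084, adjusted p = 0.00157). Cdk4, the other partner of the D cyclins, fell from 1474, 1499 and 1924 to 1043, 1153 and 1100.1 (-0.56 ± 0.11, adjusted p = 0.00734). E2f4 (-0.54 ± 0.12, adjusted p = 0.0108), Trp53 (-0.54 ± 0.12, adjusted p = 0.0129) and Cdkn1c, the third CIP/KIP inhibitor (-0.39 ± 0.078, adjusted p = 0.00838), fell as well. With the GC trend removed 2 rose and 2 fell, where 15.5% of all genes passed. With both trends removed 2 rose and none fell, where 8.24% of all genes passed. In non-RGCs, where 10.6% of all genes passed, 1 rose, Ccne2 (0.76 ± 0.20, adjusted p = 0.0406), and 1 fell, Mycn (-0.67 ± 0.13, adjusted p = 0.0153). None of the 27 passed in limma there with the GC trend or both trends removed.

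The protein-coding neighbours of Cdkn2a and Cdkn2b on chromosome 4 are Mtap, a methylthioadenosine phosphorylase (89137122 to 89181081), and Dmrta1, a transcription factor gene (89679436 to 89694772). Mtap had 302, 341 and 262 normalized reads in mKO and 198, 223 and 317 in WT RGCs, with overlap and no call (log2 0.31 ± 0.19, adjusted p = 0.238). In non-RGCs it had 556, 634 and 619.9 and 434, 420.0 and 475, with every mKO library above every WT library (log2 0.44 ± 0.14, adjusted p = 0.0681). Dmrta1 had 11, 5 and 8 reads in mKO and 2, 3 and 3 in WT RGCs, under the filter. In non-RGCs Dmrta1 rose from 7.22, 7.74 and 11.5 normalized reads in WT to 29.3, 25.9 and 18.4 in mKO (1.38 ± 0.38, adjusted p = 0.0463). That call was close to the threshold and was lost with no filter (adjusted p = 0.0762), with the GC trend removed (adjusted p = 0.0887) and without mKO library B (adjusted p = 0.180), among others. Dmrta1 entered this test through mKO alone, since its WT mean was under the filter's 10. Mtap passed with CPM scaling (adjusted p = 0.0254). Of the inhibitor genes between these neighbours, Cdkn2a did not pass in either fraction, and Cdkn2b did not pass in non-RGCs and was under the filter in RGCs.

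Some counts may include reads of other transcripts. Genes on the opposite strand overlap Cdkn1a, Ccnd1 (LTO1), Ccnd2, Ccnd3 (Bysl) and Cdk6 in the annotation, and the library kit is not stated to mark the strand, so their reads cannot be told apart where they overlap.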

How the data were processed

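RNA-seq was analysed from 3 libraries in each of 4 groups (RGCs and non-RGCs of mKO and WT mice at P0), assigned from the labels. Per the labels, the reads were aligned with STAR 2.3.1z4 to mm10 and counted with featureCounts, with normalization and testing in DESeq by the authors. The deposited values are labelled as coming from primary alignments with duplicates removed. Each deposited value is a mean signal, made by the authors by dividing the gene counts of the 3 libraries of a group by DESeq size factors and averaging. The deposited fold changes and p-values are the authors' own comparisons and were not used, and the number of unused per-sample columns was 0.

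Reads per library were solved from the means, which hold 15 digits. Exactly 1 solution was found for 100% of 96551 gene and group combinations with reads, and for 0 of 17133 control means with a shifted step. Recovered libraries carry no sample name and are lettered by depth. Genotype comparisons used the authors' size factors, and comparisons between fractions used median-of-ratios factors over the 12 libraries, since the 2 tables had been normalized separately. Values were tested with limma 3.58.1 (R 4.3.3, mean-variance trend) as log2(value + 1), for genes whose mean reached 10 in one or both groups, with Benjamini-Hochberg adjustment over all genes tested and a threshold of 0.05. Fold changes on this scale understate those of genes with few reads. The test was also run on simulated data with known changes. These were larger than the members' called differences between genotypes and came without trends over genes, so the run does not show how the test performs on the members. GENCODE M21 (GRCm38) gave positions, exon lengths and exon GC content, which was known for 95.1% of the genes used for trends in both tables. Trends were fitted to genes with a mean of at least 50, so Cdkn2a and Cdkn2b lay outside the fit. Alternatives were a pseudocount of 0.5, no filter, CPM in place of size factors, removal of trends with GC content (lowess share 0.3) and with reads per base (300 neighbouring genes), robust limma, the study's thresholds and leaving out each library.

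Named genes are the 10 members, Ezh2, Thy1, the locus neighbours, the 2 most alike genes of each member with at least 50 normalized reads in every library, and called genes of the G1/S list, with at most 6 by size. Cdkn1c, beyond these 6, is named in addition and was chosen after its values were seen. The members and lists were chosen with earlier results of these data known. The precision is limited by 3 libraries a group and by the read counts, given where they are low. Python 3.11.15, numpy 2.4.6, pandas 2.3.3 and matplotlib 3.10.9 were used.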

Additional observations from a re-analysis of the deposited data

Results flagged for a closer look

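Thy1, the capture target, differed between the fractions in its genotype effect (interaction over 12 libraries, log2 -4.60, adjusted p = 0.00100 by limma). It was lower in mKO than in WT RGCs in 3 of 3 libraries (1425, 1426 and 1422 against 2394, 2519 and 2208 normalized reads) and higher in mKO than in WT non-RGCs in 3 of 3 (67.0, 79.6 and 93.2 against 4.51, 1.94 and 9.38). None of the 10 cyclin and inhibitor genes was past this test.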

How the results depend on the processing

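No paired analysis was possible because the recovered libraries carry letters by depth and no replicate numbers. Of the 697 log2 differences of single members under the alternatives, 599 kept their direction and their side of the threshold, 46 lost a call, 12 gained one and 40 changed sign. In RGCs the members called between genotypes, 4 with the authors' size factors, numbered 2 with the GC trend removed and 0 with the GC and reads-per-base trends removed. At an unadjusted p under 0.05 and a fold of at least 1.5 they numbered 2, Ccnd1 and Cdkn2a, and Cdkn2a was tested through WT alone. With a library left out they numbered 2 to 5. All genes called in RGCs, 6027, numbered 2495 with the GC trend removed, 1325 with both trends removed and 2615 with the unadjusted rule. With a library left out they numbered 3770 (without mKO library C) to 8184 (without WT library C). Scaling to reads on genes (CPM) in place of size factors moved the median of all genes by 0.12 in RGCs and 0.17 in non-RGCs (log2) and the share of calls that were higher in mKO from 43.5% to 63.2% and from 39.4% to 74.8%. It moved the median by -0.13 between mKO RGCs and mKO non-RGCs and the higher share there from 53.2% to 42.7%.

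In non-RGCs 0 to 1 members were called with a library left out, the one being Ccnd1 without mKO library C. All genes called there, 1626, numbered 328 with the GC trend removed, 323 with both trends removed and 141 (without mKO library B) to 1614 with a library left out, 819 without WT library A and 387 without WT library B. For the interaction, 0 members were called with any library left out and 1, Cdkn2a, at an unadjusted p under 0.05 and a fold of at least 1.5. All genes called, 16, numbered 26 with CPM, 5 with both trends removed, 832 with the unadjusted rule and 7 to 237 (without mKO non-RGC library A) with a library left out. The members called between WT RGCs and WT non-RGCs, 8, numbered 6 with the GC trend removed, 10 with both trends removed, 5 with the unadjusted rule and a fold of at least 1.5 and 6 to 8 with a library left out. Those of mKO, 8, numbered 7 with the GC trend removed, 9 with both removed and 6 to 7 with a library left out.

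Cdkn2d in RGCs was the only called member whose sign changed. In RGCs, Cdkn2c was 0.054 without the GC trend and 0.016 without both, and without both Cdkn2d was 0.048 and Cdk6 -0.15. In non-RGCs, CPM gave 0.096 for Cdkn2d, 0.0079 for Cdkn1a, 0.00084 for Cdkn1b and 0.018 for Ccnd2, and Cdkn2d was 0.20 and 0.24 without the GC trend and without both trends. For the interaction, Ccnd2 was -0.025 with CPM and -0.14 without both trends. Cdkn2d between mKO fractions was -0.091 with CPM. With a library left out, the ranges that crossed 0 were -0.37 to 0.20 (Ccnd2) and -0.013 to 0.56 (Cdk6) in RGCs, and in non-RGCs -0.32 to 0.17 (Ccnd2), -0.33 to 0.068 (Cdkn1a), -0.15 to 0.24 (Cdkn2a), -0.14 to 0.35 (Cdkn2b) and -0.22 to 0.073 (Cdkn2d). For the interaction they were -0.29 to 0.35 (Ccnd2), -0.065 to 0.11 (Cdkn1b), -0.60 to 0.046 (Cdkn2b) and -0.14 to 0.37 (Cdkn2c), and between mKO fractions -0.10 to 0.18 (Cdkn2d). The causes of these changes were not tested.

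Depth limits Cdkn2a and Cdkn2b, with 4 to 20 reads per RGC library, and 3 libraries a group limit Ccnd2 and Cdk6, whose libraries differ within a group.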

Other observations

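Most of the G1/S list was lower in RGCs than in non-RGCs. In WT retina 20 of its 27 genes passed as lower and 2 as higher in RGCs, against 23.7% and 27.2% of all genes tested. In mKO retina 19 passed as lower and 4 as higher, against 25.8% and 29.2%. The list's medians were -0.58 in WT and -0.73 in mKO on the log2 scale, against -0.026 and -0.024 over all genes tested. The 10 markers of cycling cells were lower in RGCs in 10 of 10 (WT) and 9 of 10 (mKO), and their part in these counts was not tested.

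The kidney genes Umod and Kap summed to 32.8 to 57.9 normalized reads in WT RGCs, 0 to 1.80 in mKO RGCs, 41.4 to 47.5 in WT non-RGCs and 0 to 0.986 in mKO non-RGCs. Lens markers summed to 72.6 to 88.8 in WT RGCs and 67.4 to 87.8 in mKO RGCs, with none of the 2 that were tested past the threshold.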
